A study of Mus musculus with 12 samples.

Results

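The acute-phase genes Saa1, Saa2, Saa3, Lcn2, Hp and Ptx3 and the formyl peptide receptor genes Fpr1 and Fpr2 were followed by RNA-seq in mouse bone marrow-derived macrophages (BMDMs). These 8 genes were chosen by name, as secreted proteins of the acute-phase response and as receptors that recognise bacterial peptides and serum amyloid A, and were found by gene identifier among the 48526 genes of the count table. All 8 passed the filter on low counts, which left 15523 genes for testing. HSS9 KO macrophages came from mice homozygous for a deletion of HSS9, a DNase I hypersensitive enhancer upstream of Tnf that the study calls TNF-9. WT macrophages came from mice labelled as HSS9+/+ littermate controls, whereas the study's methods describe purchased C57BL/6 mice and KO mice bred from homozygous pairs, so a difference in breeding cannot be told apart from the deletion. All mice were young adult males. Marrow cells of the femur and tibia were grown into macrophages with L929-conditioned medium, and were then given LPS, the outer membrane lipid of Gram-negative bacteria, for 6 hr or PBS for the same time (UT). Each of the 4 groups (WT UT, WT LPS, KO UT and KO LPS) had 3 libraries, numbered as batches 1 to 3 in the labels, and nothing in the labels says that they came from separate mice, so p-values measure the spread between these libraries. The deletion is a constitutive one in the whole animal, and how many founder lines were used is not given in the sources used here.

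The acute-phase response is the rise of a set of secreted defence proteins during infection and injury. In the liver it is driven by interleukin-6 through STAT3 and by interleukin-1 and TNF through NF-kB, together with the C/EBP transcription factors, and macrophages make part of the same set after sensing LPS through TLR4. Serum amyloid A proteins are small lipid-binding apolipoproteins. Saa1 and Saa2 are known as liver products, and Saa3 is the mouse form made by macrophages and adipose tissue. Lcn2 (lipocalin 2) binds bacterial siderophores and so withholds iron, Hp (haptoglobin) binds free haemoglobin, and Ptx3 is a long pentraxin, a soluble pattern-recognition protein. Fpr1 and Fpr2 are G protein-coupled receptors that guide phagocytes towards N-formylated bacterial peptides, and Fpr2 also binds serum amyloid A and annexin A1.

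Of the 8 genes, 5 lie in small clusters of related genes. In the GRCm38 build with GENCODE M21 annotation, Saa3 (ENSMUSG00000040026.8, chr7:46711998-46715700, minus strand) lay 27.3 kb from Saa1 (ENSMUSG00000074115.5, chr7:46740497-46742980, minus strand), between their 5′ ends. Saa1 in turn lay 8.81 kb from Saa2 (ENSMUSG00000057465.5, chr7:46751790-46754313, plus strand). Fpr1 (ENSMUSG00000045551.7, chr17:17876471-17883940, minus strand) and Fpr2 (ENSMUSG00000052270.7, chr17:17887824-17893952, plus strand) stood head to head with 3.88 kb between their 5′ ends. They are on the chromosome that carries Tnf, at a distance of 17.3 Mb. Lcn2 (ENSMUSG00000026822.14) was at chr2:32384633-32388252 on the minus strand and Hp (ENSMUSG00000031722.9) at chr8:109575128-109579172 on the minus strand. Ptx3 (ENSMUSG00000027832.5) was at chr3:66219910-66225805 on the plus strand, inside the span of Veph1 on the other strand, a gene with at most 1 count in any library.

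Where a read can come from 2 genes, its count is uncertain. Of all 100-base windows of their annotated transcripts, Saa1 shared 8.96% with Saa2, and Saa2 shared 8.63% with Saa1. Joined exons of Saa1 and Saa2 came to 2478 and 2518 bases, nearly the whole span of each gene. The share within their spliced transcripts alone was not measured. Fpr2 shared 12.3% with Gm5966, and its exons overlapped those of Fpr3, which had at most 4 counts in any library. Saa3, Lcn2, Hp, Ptx3 and Fpr1 shared none.

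The 250 bases upstream of the start are shown for 4 genes: Saa1 and Saa2 because they are near copies, Saa3 because it belongs to the same family and had a far higher level, and Ptx3 because it was the member with the largest genotype difference after LPS. The sequences are those of RefSeq on GRCm38.p6, read 5′ to 3′ on the strand of the gene, with matches to the C/EBP motif on either strand in capitals, spelled TTNNGNAA where N is any base. They span chr7:46742981-46743230 (minus strand) for Saa1, chr7:46751583-46751832 (plus strand) for Saa2, chr7:46715677-46715926 (minus strand) for Saa3 and chr3:66219637-66219886 (plus strand) for Ptx3. RefSeq and GENCODE starts differed by 0 bases for Saa1, 43 for Saa2, 24 for Saa3 and 23 for Ptx3.
Saa1: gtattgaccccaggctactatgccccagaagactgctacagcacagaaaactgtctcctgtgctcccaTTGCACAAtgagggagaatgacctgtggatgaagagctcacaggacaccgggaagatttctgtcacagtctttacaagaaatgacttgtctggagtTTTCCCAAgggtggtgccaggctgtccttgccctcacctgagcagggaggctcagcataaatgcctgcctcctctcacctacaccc
Saa2: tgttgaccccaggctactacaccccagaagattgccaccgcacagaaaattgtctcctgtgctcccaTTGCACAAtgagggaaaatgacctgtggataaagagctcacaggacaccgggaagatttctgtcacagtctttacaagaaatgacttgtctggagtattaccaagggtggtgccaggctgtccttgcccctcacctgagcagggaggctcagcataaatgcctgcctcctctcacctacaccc
Saa3: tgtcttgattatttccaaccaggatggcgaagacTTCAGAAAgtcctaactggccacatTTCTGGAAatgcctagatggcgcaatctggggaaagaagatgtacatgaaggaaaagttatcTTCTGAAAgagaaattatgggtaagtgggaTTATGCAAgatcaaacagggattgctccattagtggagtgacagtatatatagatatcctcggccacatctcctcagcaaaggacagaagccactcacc
Ptx3: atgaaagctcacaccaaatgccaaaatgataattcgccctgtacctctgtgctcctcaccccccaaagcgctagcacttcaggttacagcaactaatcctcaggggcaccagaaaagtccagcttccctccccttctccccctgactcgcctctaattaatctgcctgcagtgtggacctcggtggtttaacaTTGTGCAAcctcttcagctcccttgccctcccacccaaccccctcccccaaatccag

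In the best alignment without gaps, the Saa1 and Saa2 sequences were identical at 197 of 249 bases (79.1%), against 32.2% for Saa1 and Saa3 and 32.8% for Saa2 and Saa3. Bases beyond an inserted or missing base fall out of register in such an alignment, so 79.1% is a lower limit for these near copies. RefSeq entries were found for 7 of the 8 genes, Hp being named only. The C/EBP motif had 2 matches in Saa1, 1 in Saa2, 4 in Saa3, 1 in Ptx3, 1 in Lcn2, 3 in Fpr1 and 2 in Fpr2, and at least 1 match was present in 36.8% of all 32851 promoters searched over the same length. Saa1 and Saa2 shared the match TTGCACAA, at 182 and 183 bases before the start. The letters TATAAA, read on the strand of the gene, were found in the 250 bases of Fpr1 and Fpr2, without overlap with a C/EBP match, and in those of 7.59% of all promoters, and the NF-kB consensus, searched on both strands, was found in none of the 7 and in 3.9% of all promoters. The motif searches are descriptions of these windows.

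Library totals ranged from 26154533 to 36423921 counts. Levels are given as CPM, counts divided by the TMM-normalized library size and put on the usual CPM scale, and a gene was called changed at an adjusted p below 0.05 in the edgeR quasi-likelihood test with more than 1 on the log2 scale. Tnf, the readout of the deletion, was at 890 ± 57.4 CPM in WT LPS and 432 ± 15.2 CPM in KO LPS (SD, n = 3), a log2 difference of -1.04 (SE 0.0604, edgeR adjusted p = 2.76e-10), and differed by -0.66 in UT cells (edgeR adjusted p = 1.29e-06). All 8 macrophage markers were present, with summed levels from 24471 to 33820 CPM over the 12 libraries. Of the 6 hepatocyte markers, Alb, Ttr, Apoa1, Serpina1a and Hnf4a were at 0 in every library and Apoa2 stayed at 22 counts or fewer. The 12 neutrophil markers summed to 140 to 148 CPM in UT cells and 343 to 388 CPM after LPS, with Ly6g at 0 throughout. In WT cells Csf3r went from 71.5 to 259 CPM and S100a8 from 7.32 to 52.7 CPM. Of the 9 tested, 3 passed the adjusted p as higher after LPS in each genotype, with 5 lower in WT and 6 lower in KO cells. The list median log2 change was -0.51 in WT and -1.32 in KO cells. B cell and T cell markers summed to at most 1.79 and 3.41 CPM. Small structured RNAs took a share of 3.00 to 3.25% in WT UT, 6.64 to 7.98% in KO UT, 4.04 to 6.89% in WT LPS and 3.23 to 3.43% in KO LPS libraries.

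The comparison of LPS with UT cells asked how far each gene responded in each genotype. All 8 genes were called higher after LPS in WT cells and all 8 in KO cells. In every case the 3 LPS libraries lay above the 3 UT libraries of the genotype, a separation not counted over all genes tested. Saa1, Saa2 and Ptx3, at 0 to 11 counts in the UT libraries, passed the filter on low counts only through their LPS libraries. Their calls as higher were thus partly set by the filter. Over all genes tested, the background was 19.1% called higher with 18.7% lower in WT cells, and 17.7% called higher with 19.3% lower in KO cells. The median log2 change of the 8 genes was 7.41 in WT cells and 7.92 in KO cells, or 7.41 and 7.27 with genes at the floor of 3 counts set at their lower bound. Medians over all genes tested were 0.05 and -0.06. The lower bounds do not undo the selection of Saa1, Saa2 and Ptx3 by the filter. In bulk RNA, a change in RNA per cell and a change in the number of cells that make it cannot be told apart.

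**Figure D1:**
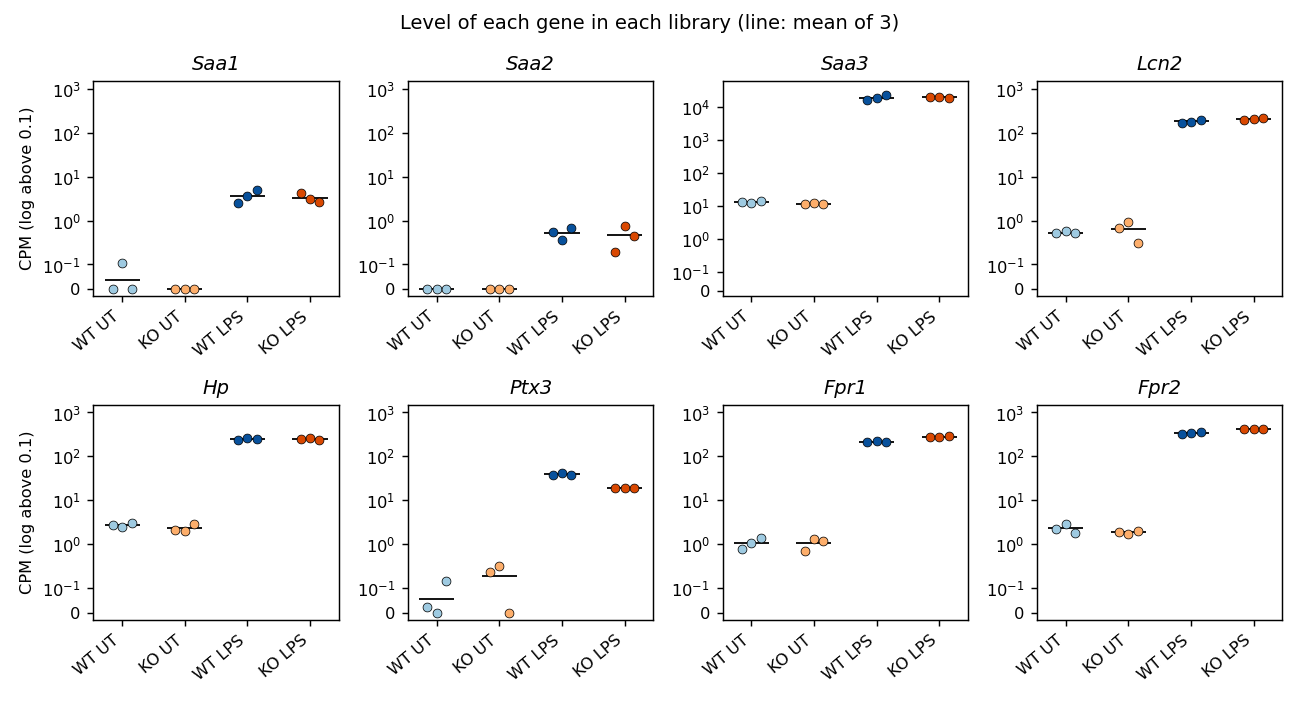
Level of each of the 8 genes in each library, in CPM on an axis that is logarithmic above 0.1, with 3 points for each of the 4 groups (from left, WT UT, KO UT, then WT LPS, KO LPS) and a line at their mean. Every gene was higher in the LPS libraries, Saa3 had its own axis range because its LPS levels ran to 22896 CPM, and Ptx3 was lower in the KO LPS than in the WT LPS libraries.

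Saa3 reached the highest level of the 8 genes. Its UT levels were 13.1, 12.1 and 14.0 CPM in WT libraries 1 to 3 and 11.2, 12.6 and 11.8 CPM in KO libraries 1 to 3. After LPS they were 15547, 18574 and 22896 CPM in WT and 19355, 19659 and 18593 CPM in KO, so that the UT and LPS ranges were far apart. The log2 change was 10.50 in WT cells (95% interval 10.23 to 10.77) and 10.66 in KO cells (10.39 to 10.94), or 1451-fold and 1620-fold (edgeR adjusted p = 3.10e-24 and 2.28e-24). By mean CPM, Saa3 ranked 4 of 15523 genes in WT LPS and 3 in KO LPS, and it took 1.27 to 1.86% of all counts in the WT LPS libraries and 1.51 to 1.61% in the KO LPS libraries.

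Saa1 and Saa2 were close to the limit of detection. Saa1 had 0, 5 and 0 counts in WT UT and 0 counts in every KO UT library, and rose to 67, 81 and 104 counts in WT LPS and 109, 82 and 71 counts in KO LPS. Saa2 had 0 counts in all 6 UT libraries, 15, 8 and 14 counts in WT LPS and 5, 20 and 12 counts in KO LPS. Against a floor of 3 counts per UT library, Saa1 was at least 39.3-fold higher in LPS-treated KO cells, and Saa2 at least 7.88-fold higher with LPS in WT and at least 5.51-fold higher in KO cells. Saa1 in WT cells, with its 5 counts in 1 UT library, changed by 6.49 on the log2 scale (95% interval 5.34 to 7.63, edgeR adjusted p = 1.92e-09), and without that library no fold can be given. At their LPS levels, the shared stretches of the Saa1 and Saa2 transcripts leave the split between these neighbours uncertain. Floors cover counting error only.

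Lcn2 and Hp, binders of siderophores and haemoglobin, rose from low levels that were already measurable. Lcn2 was at 0.515, 0.574 and 0.510 CPM in WT UT, 0.665, 0.940 and 0.303 in KO UT, 170, 178 and 195 in WT LPS and 195, 210 and 213 in KO LPS. The Lcn2 changes were 8.40 in WT (95% interval 8.12 to 8.68) and 8.37 in KO cells (8.08 to 8.65) in log2 units (edgeR adjusted p = 1.96e-22 and 2.03e-22). Hp was at 2.81, 2.47 and 2.98 CPM in WT UT, 2.14, 2.00 and 2.93 in KO UT, 231, 266 and 255 in WT LPS and 253, 260 and 237 in KO LPS. Its log2 changes, 6.51 in WT (6.30 to 6.72) and 6.71 in KO cells (6.49 to 6.93), were the smallest in each genotype among the 6 genes with a fold in both, with Ptx3 at 6.73 close to it in KO cells (edgeR adjusted p = 1.03e-22 and 9.79e-23).

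Ptx3 was near 0 without LPS, with 1, 0 and 7 counts in WT UT and 8, 11 and 0 counts in KO UT. After LPS it was at 38.4, 42.4 and 38.1 CPM in WT and 19.2, 18.7 and 19.5 CPM in KO. The log2 change was 9.30 in WT cells (95% interval 8.71 to 9.89, edgeR adjusted p = 9.17e-18) and 6.73 in KO cells (6.17 to 7.29, edgeR adjusted p = 1.31e-15). Both values rest on the few UT counts. The WT value was 8.73 without WT UT library 2, and without WT UT library 3 the 2 remaining libraries held 1 and 0 counts, which gives no usable fold. The KO value ran from 6.09 to 7.41 over 22 alternative settings, with the extremes set by KO UT libraries 3 and 2.

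Fpr1 and Fpr2, the receptors, responded together with the secreted proteins. Fpr1 was at 0.795, 1.08 and 1.36 CPM in WT UT, 0.694, 1.32 and 1.21 in KO UT, 212, 227 and 214 in WT LPS and 274, 279 and 295 in KO LPS. Fpr2 was at 2.18, 2.96 and 1.85 CPM in WT UT, 1.91, 1.70 and 2.02 in KO UT, 325, 333 and 351 in WT LPS and 421, 421 and 427 in KO LPS. For both receptors the genotypes overlapped without LPS and were apart after it. The log2 changes with LPS were 7.64 and 8.03 for Fpr1 in WT and KO cells (edgeR adjusted p = 1.47e-22 and 9.29e-23) and 7.17 and 7.81 for Fpr2 (edgeR adjusted p = 2.84e-23 and 1.58e-23).

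**Figure D2:**
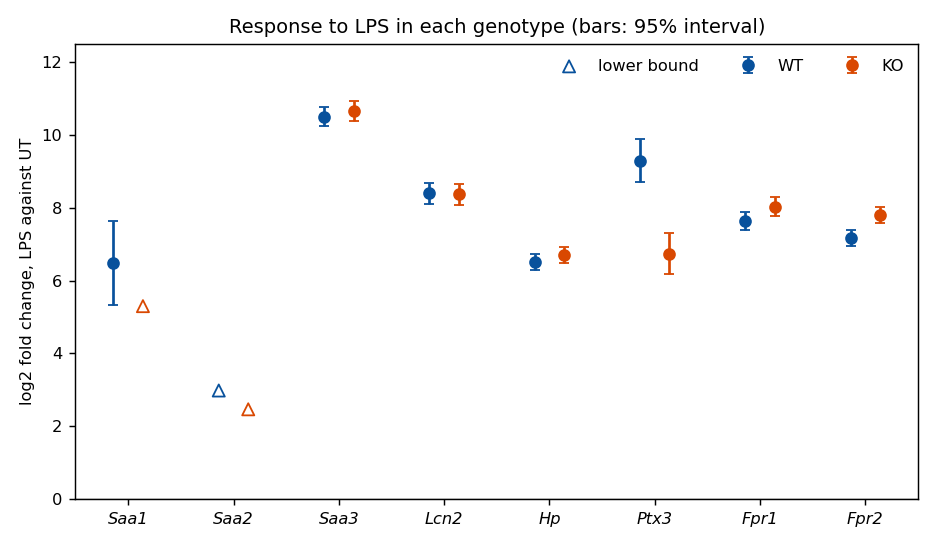
Log2 fold change of LPS against UT for each gene in WT and KO cells (3 against 3 libraries), with bars for the 95% interval and open triangles for lower bounds where every UT library of the genotype had 3 counts or fewer. Values ran from 6.49 to 10.66 on the log2 scale where a fold could be given, and those of Ptx3 differed most between genotypes, at 9.30 and 6.73.

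Levels of different genes were compared per kb of exon, with the exons of all annotated transcripts joined. Joined lengths were 2478 bases for Saa1, 2518 for Saa2, 2623 for Lcn2, 1606 for Hp, 1324 for Fpr1 and 1296 for Fpr2. Lengths of the transcripts expressed here were not measured, so the order depends on these joined lengths. In CPM, Hp stood above Fpr1 in WT LPS (251 and 218) and below it in KO LPS (250 and 283). After LPS in WT cells the order was Saa3 at 7293 CPM per kb, Fpr2 at 259.6, Fpr1 at 164, Hp at 156, Lcn2 at 69.1, Ptx3 at 14.8, Saa1 at 1.48 and Saa2 at 0.209. In KO cells the same order held, with 7368 for Saa3, 326 for Fpr2, 214 for Fpr1, 156 for Hp, 78.6 for Lcn2, 7.12 for Ptx3, 1.33 for Saa1 and 0.183 CPM per kb for Saa2. The libraries of Fpr1 and Hp overlapped in WT LPS and did not in KO LPS, and no other neighbours in this order overlapped in either genotype. Without LPS in WT cells, Saa3 stood at 5.02, Fpr2 at 1.80, Hp at 1.71, Fpr1 at 0.815 and Lcn2 at 0.203 CPM per kb, with Ptx3, Saa1 and Saa2 near or at 0.

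**Figure D3:**
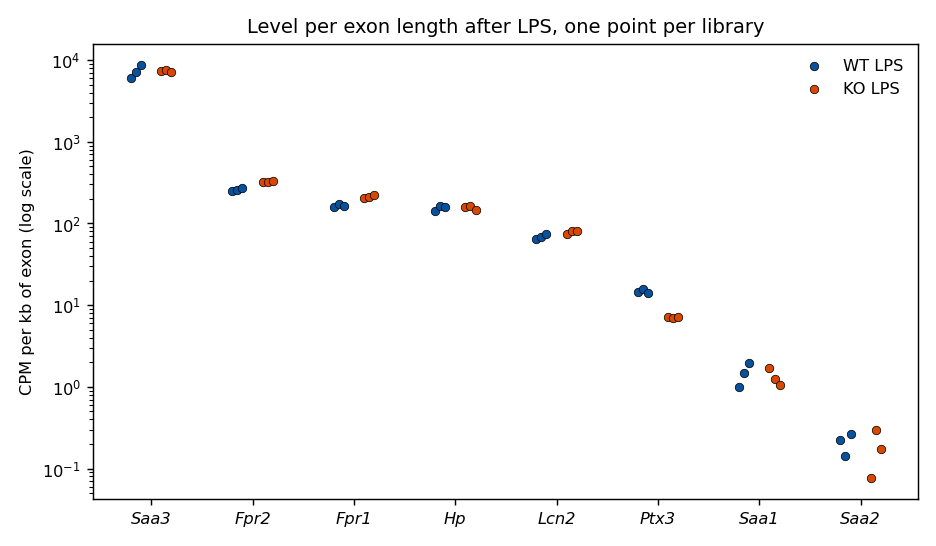
CPM per kb of exon after LPS on a logarithmic axis, with 1 point for each of the 3 WT LPS and 3 KO LPS libraries and the genes in order of level. Saa3 had means of 7293 (WT) and 7368 (KO), and Saa2 had means of 0.209 and 0.183. The points of the genotypes were apart for Fpr2, Fpr1, Lcn2 and Ptx3, a separation not counted over all genes tested.

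The comparison of KO with WT cells after LPS asked how the induced levels differed between genotypes. Ptx3 was lower in KO LPS and was the only one of the 8 genes to be called, beside 1.25% of all genes tested. Its 3 KO LPS libraries, at 18.7 to 19.5 CPM, lay below its 3 WT LPS libraries, at 38.1 to 42.4 CPM. The log2 difference was -1.05 (SE 0.138, 95% interval -1.34 to -0.77, edgeR adjusted p = 2.83e-05), which left 0.482 of the WT level. Within the 3 batches it ran from -0.97 to -1.18. Over 22 alternative settings it stayed between -1.08 and -1.0 with an adjusted p below 0.05 in 21. The exception was DESeq2 fitted to all 12 libraries (-1.05, DESeq2 adjusted p = 0.377), whose dispersion for Ptx3 was 0.421. That dispersion was 0.00523 when only the 6 LPS libraries entered, and the DESeq2 adjusted p was then 1.64e-24.

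Fpr1 and Fpr2 moved the other way by a smaller amount. Fpr1 was higher in KO LPS by 0.38 on the log2 scale (SE 0.0778, 95% interval 0.22 to 0.54, edgeR adjusted p = 0.00249), or 1.30-fold, and in batches 1 to 3 by 0.37, 0.30 and 0.46. Fpr2 was higher by 0.33 (SE 0.0715, 95% interval 0.18 to 0.48, edgeR adjusted p = 0.00379), or 1.26-fold, and in batches 1 to 3 by 0.37, 0.34 and 0.28. For each receptor all 3 KO LPS libraries lay above all 3 WT LPS libraries. Both passed the adjusted p without reaching the fold minimum, in each of 22 alternative settings, with Fpr1 between 0.35 and 0.41 and Fpr2 between 0.31 and 0.42. By adjusted p alone, 2 of the 8 genes were higher and 1 lower in KO LPS, beside 7.78% higher and 6.54% lower over all genes tested. Macrophage markers moved in the same direction: 6 of 8 passed the adjusted p and were higher in KO LPS, with a median log2 difference of 0.21 and sums of 27115 to 28778 CPM against 24471 to 25977 CPM in WT LPS. Of 7 stromal markers tested, 5 were called higher in KO LPS, beside 91 of all 15523 genes tested. Their list had a median log2 difference of 1.40 and sums of 37.8 to 38.4 CPM in KO LPS against 25.3 to 26.8 in WT LPS. Acta2 (1.80) and Dcn (1.58) were among the 5, and Pdgfrb, the most abundant of the list, was at -0.01. The neutrophil markers summed to 358 to 388 and 343 to 380 CPM, with Csf3r, the most abundant, at 0.05, and 1 of the 9 tested, S100a9, passed the adjusted p as higher in KO LPS (0.76, edgeR adjusted p = 0.000936). The part of any of these lists in the receptor difference was not tested.

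The 5 other genes did not pass the test after LPS. Lcn2 was at 0.19 (95% interval 0.02 to 0.35, edgeR adjusted p = 0.12), with all 3 KO LPS libraries above the WT LPS libraries, and it passed the adjusted p in 5 of 22 alternative settings, with DESeq2, with no filter on low counts, with the small RNA share as a covariate (0.36, edgeR adjusted p = 0.0144), without KO UT library 3 (0.19) and without WT LPS library 3 (0.24). Hp was at 0.00 (-0.16 to 0.15, edgeR adjusted p = 0.979) and Saa3 at 0.02 (-0.16 to 0.19, edgeR adjusted p = 0.933), so that for these 2 genes the interval left room for a difference of less than 0.2 on the log2 scale. Saa1 was at -0.16 (-0.83 to 0.52, edgeR adjusted p = 0.802) and Saa2 at -0.19 (-1.39 to 1.01, edgeR adjusted p = 0.867), and at 5 to 20 counts per LPS library the interval for Saa2 includes a difference of the size seen for Ptx3. The median over the 8 genes was 0.01, beside -0.01 over all genes tested.

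Saa3 varied more among the WT LPS libraries than among the KO LPS libraries, with an SD of 3694 CPM against 549 CPM. Its differences within batches 1, 2 and 3 were 0.32, 0.08 and -0.30. The WT LPS libraries 1 to 3, at 15547, 18574 and 22896 CPM of Saa3, held 4.04, 5.36 and 6.89% small structured RNAs. With that share as a covariate the Saa3 difference was 0.48 (edgeR adjusted p = 3.39e-07), without LPS it was -0.996 (edgeR adjusted p = 3.27e-08), and the part of these RNAs in the Saa3 level was not otherwise tested. The share did not overlap between genotypes in either treatment, so these fits cannot fully separate it from genotype.

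**Figure D4:**
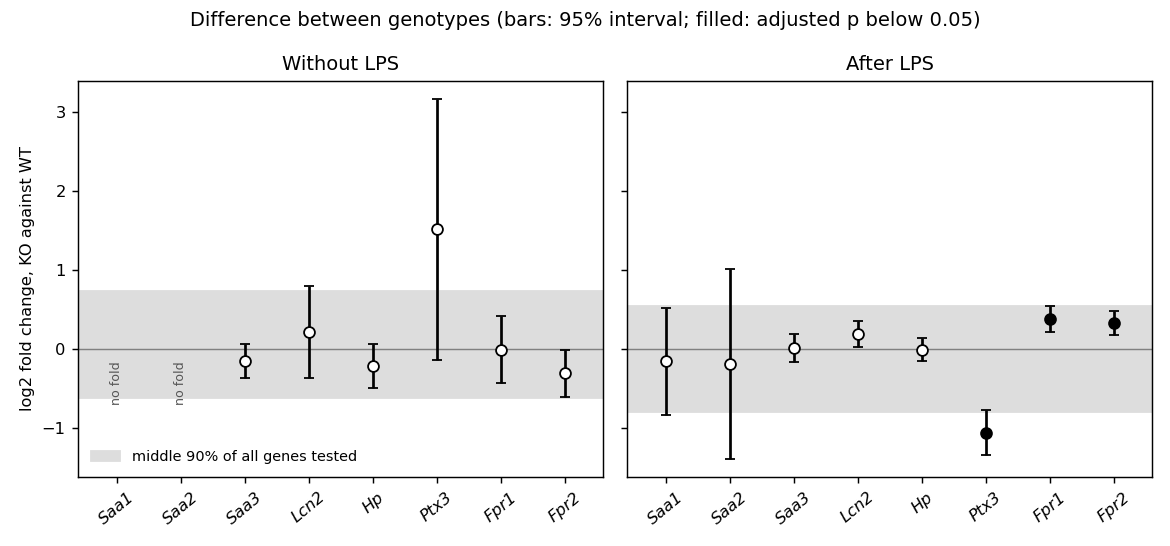
Log2 fold change of KO against WT for each gene without LPS and after LPS (3 against 3 libraries), with bars for the 95% interval, filled points for an adjusted p below 0.05 and a grey band for the middle 90% of all genes tested (-0.62 to 0.74 without LPS, -0.79 to 0.55 after LPS). After LPS Ptx3 lay below the band at -1.05 and Fpr1 and Fpr2 lay inside it at 0.38 and 0.33; Saa1 and Saa2 have no fold without LPS.

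Without LPS, none of the 8 genes was called between genotypes by edgeR or by DESeq2, and 1 of them, Fpr2, had an unadjusted p under 0.05. Over all genes tested, 1.82% were called and 23.8% passed the adjusted p. Fpr2 was at -0.30 in KO UT against WT UT (95% interval -0.60 to -0.01, edgeR adjusted p = 0.135), the reverse of its sign after LPS, and passed the adjusted p with DESeq2 (-0.38, DESeq2 adjusted p = 0.0284) and without WT UT library 3 (-0.45, edgeR adjusted p = 0.0235). Saa3 was at -0.14 (edgeR adjusted p = 0.356), Hp at -0.21 (0.292), Lcn2 at 0.22 (0.635) and Fpr1 at -0.01 (0.986), and the libraries of the genotypes overlapped for each. Hp passed without KO UT library 3 (-0.41, edgeR adjusted p = 0.0391). Ptx3, with 0 to 11 counts per library, was at 1.51 (SE 0.791, 95% interval -0.13 to 3.16, edgeR adjusted p = 0.186). It passed without KO UT library 3, at 2.16 (edgeR adjusted p = 0.0163), and without WT UT library 3 (edgeR adjusted p = 0.0312), which left WT UT counts of 1 and 0. Of the 9 neutrophil markers tested, 5 were called higher in KO UT, S100a8 by 1.16 and S100a9 by 1.21 among them. The most abundant of the list, Csf3r (-0.15, edgeR adjusted p = 0.0433) and Mmp8 (-0.45, edgeR adjusted p = 1.88e-05), passed the adjusted p as lower, and the sums of all 12 were 146 to 148 CPM in KO UT and 140 to 143 CPM in WT UT.

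Whether the LPS response itself differed between genotypes was tested as an interaction, the KO response minus the WT response on the log2 scale. Ptx3 was called at -2.57 (SE 0.807, 95% interval -4.25 to -0.88, edgeR adjusted p = 0.0331), beside 2.16% of all genes tested. This value joins the lower LPS level to UT counts of 0 to 11, and the call was lost with batch as a replicate block (-2.57, edgeR adjusted p = 0.0573) and with DESeq2 (-2.62, DESeq2 adjusted p = 0.108). It was also lost without WT UT library 1 (-2.23), WT UT library 2 (-2.0), KO UT library 1 (-2.33), KO UT library 2 (-1.88), WT LPS library 2 (-2.52) or KO LPS library 3 (-2.58). Fpr2 had an interaction of 0.63 (SE 0.158, 95% interval 0.30 to 0.96, edgeR adjusted p = 0.00819), past the adjusted p, as were 16.8% of all genes tested, and short of the fold minimum. It missed the adjusted p in 2 of 20 alternative settings, without WT UT library 2 (0.42, edgeR adjusted p = 0.0503) and with the small RNA share as a covariate (0.88, edgeR adjusted p = 0.0615). Fpr1, at 0.39 (edgeR adjusted p = 0.254), Hp at 0.21 (0.403), Saa3 at 0.16 (0.47) and Lcn2 at -0.03 (0.963) did not pass, and no interaction is given for Saa1 and Saa2, which lacked counts without LPS. Saa3 passed without WT LPS library 3 (0.32, edgeR adjusted p = 0.0148), and with the small RNA share as a covariate it was called at 1.48 (edgeR adjusted p = 1.69e-07).

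Other acute-phase genes gave a frame for these 8. Of 23 further genes of this kind in the table, 8 passed the filter on low counts. Of these 8, 7 were called higher after LPS in each genotype, all but Hpx (haemopexin), beside 19.1% (WT) and 17.7% (KO) of all genes tested. Cfb and Steap4, at 0 to 9 counts in the UT libraries, passed the filter only through their LPS libraries. C3, the central complement protein, changed by 3.09 in WT and 3.54 in KO cells, and Cp (ceruloplasmin), the copper-carrying ferroxidase, by 7.07 and 7.42. The metallothioneins, metal-binding proteins, changed by 3.02 and 1.81 (Mt1) and by 6.15 and 4.98 (Mt2). The median of the 8 tested was 4.62 in WT and 4.26 in KO cells. The liver products Apcs, Fga, Fgb, Fgg, Itih3 and Serpina1a had 0 counts in every library, as did the receptor genes Fpr-rs3, Fpr-rs4, Fpr-rs6 and Fpr-rs7.

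Between genotypes after LPS, 1 of these 8 further genes passed the adjusted p, Mt2, lower in KO (log2 difference -0.29, edgeR adjusted p = 0.0469), beside 6.54% lower over all genes tested. Cp was at 0.06 (edgeR adjusted p = 0.679), C3 at -0.01 (0.951) and Mt1 at -0.19 (0.286). The median of the 8 was -0.02. Without LPS, Mt1 was called higher in KO at 1.02 (edgeR adjusted p = 2.35e-06), Mt2 passed the adjusted p at 0.88 (0.00298) and C3 at -0.46 (4.96e-06). Over all genes tested, 1.82% were called and 23.8% passed the adjusted p in that comparison. The interactions of Mt1 (-1.22, edgeR adjusted p = 5.10e-05) and Mt2 (-1.17, edgeR adjusted p = 0.00105) were called, beside 2.16% of all genes tested.

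Of 18 cytokines, receptors and transcription factors known to drive acute-phase genes, all tested, 13 were called higher and 3 lower after LPS in each genotype. Between genotypes after LPS, 5 passed the adjusted p as lower and 1 as higher in KO, with a list median of -0.12, beside 6.54% lower and 7.78% higher over all genes tested. Tnf was the only one of them past the fold minimum. Il1b, at -0.09 (edgeR adjusted p = 0.288), Nfkb1, an NF-kB subunit, at -0.14 (0.092), and Socs3, the feedback inhibitor of interleukin-6 signalling, at -0.07 (0.57), did not pass. Il6, at -0.96 (edgeR adjusted p = 2.10e-06), Cebpd, the C/EBP delta gene, at -0.37 (0.0172), and Il6ra, the interleukin-6 receptor, at 0.36 (0.000493), did pass and are named after their values were seen.

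Among 10 genes for other ligands, receptors and partners of the 8 proteins, all tested, 1 was higher and 1 lower in KO after LPS by adjusted p, near the shares over all genes tested (7.78% and 6.54%), with a list median of -0.01. Tlr2, a receptor for bacterial lipopeptides at which serum amyloid A also acts, was at -0.23 (edgeR adjusted p = 0.00411). Hmox1, the haem oxygenase that breaks down haem, was at 0.19 (0.0281). Anxa1, the Fpr2 ligand annexin A1, was at 0.15 (edgeR adjusted p = 0.0602), and Lrp1, a scavenger receptor that takes up haemopexin with haem, at 0.02 (0.79). Without LPS, 4 of the 10 passed the adjusted p as higher and 1 as lower in KO, beside 23.8% in either direction over all genes tested. Among these Camp, which encodes the cathelicidin peptide, an Fpr2 ligand, was called at 2.04 (edgeR adjusted p = 2.42e-05), its interaction was called at -1.98 (edgeR adjusted p = 0.000476), and it is named after its values were seen. Camp is also on the list of neutrophil markers and is among the 5 of them called higher in KO UT.

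The genes most like each member across the 12 libraries are given as a description, by Pearson's r of log2 CPM among 9583 genes with a mean of at least 5 CPM. All 12 points share the split between UT and LPS, so r was high throughout. Saa3 was most like Ikbke (r = 0.9997) and Il1b (0.9996), Hp like Gsap and Il1b (0.999 each), and Lcn2 like Gpr85 (0.999) and Ctu1 (0.998). Fpr1 was most like Glipr2 and Cept1 (0.999 each) and Fpr2 like Jag1 and Ptges (0.999 each). Ptx3 was most like Paf1 and Il20rb (0.992 each), Saa1 like Dleu2 and Cxcl11 (0.994 each) and Saa2 like Phf12 (0.990) and Med15 (0.989).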

How the data were processed

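Stranded, ribosome- and globin-depleted total RNA libraries were sequenced as paired ends. Per the labels and the study's methods, the authors checked reads with FastQC 0.11.9 and aligned them with HISAT2 2.1.0 to GRCm38. They converted and indexed the alignments with SAMtools 1.17, counted reads per gene with featureCounts 2.0.0 and deposited raw counts. Which annotation release and strand setting they used, and how multi-mapping reads were handled, is not given in the sources used here. Identifiers of 48144 of 48526 genes matched GENCODE M21, and 382 did not.

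For testing, edgeR 4.0.16 (limma 3.58.1, R 4.3.3) was run with its quasi-likelihood F-test on the counts in 1 model of the 4 groups, with TMM scaling, a filter at 10 counts (15 in total; 99.96% of counts kept) and Benjamini-Hochberg adjustment over 15523 genes. The common biological coefficient of variation was 0.0712. Log2 changes are fitted values, intervals are 95% t intervals, and no fold is given where a group had 3 counts or fewer in every library. Counting was checked against duplicates: replicates differed by a chi-square of at least 3.81 per degree of freedom. Library numbers are batches in the labels and so pair the samples, although deviations of same-numbered libraries correlated at only -0.06 to 0.04 over 18 pairs.

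Alternatives were DESeq2 1.42.0, other scalings and filters, the batch as a replicate block, fits limited to the groups under comparison, the small structured RNA share (snRNA, snoRNA, scaRNA, rRNA, ribozyme and misc_RNA genes) as a covariate, and leaving out each library. DESeq2 on the compared groups alone was added after seeing the data. The steps were tested on simulated data. The 8 genes and the gene lists were chosen with earlier results of these data known. Besides the 8 genes, the text names Tnf, up to 4 tested genes of highest mean CPM from each list, listed acute-phase and receptor genes called between genotypes, and the 2 genes most like each of the 8. Others were named after their values were seen. Plots were made in Python 3.11.15 with matplotlib 3.10.9.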

Additional observations from a re-analysis of the deposited data

Results flagged for a closer look

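The test of a difference in the LPS response between genotypes gave an adjusted p below 0.05 for 2 of the 8 genes, as it did for 16.8% of all genes tested, and 1 of the 8 was also past the fold minimum, beside 2.16% of all genes. For Ptx3 the KO response was lower than the WT response by a log2 difference of -2.57 (SE 0.807, edgeR adjusted p = 0.0331), and every UT library behind it held 0 to 11 counts. It passed in 11 of 20 alternative settings and was lost with the replicate block (edgeR adjusted p = 0.0573), with DESeq2 (DESeq2 adjusted p = 0.108), with the small RNA share as a covariate (edgeR adjusted p = 0.133) and when any of 6 libraries was left out alone. For Fpr2 the KO response was higher by 0.63 (SE 0.158, edgeR adjusted p = 0.00819), from -0.30 without LPS to 0.33 after it, short of the fold minimum, and it passed the adjusted p in 18 of 20 alternative settings.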

How the results depend on the processing

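All 8 genes were called higher after LPS in both genotypes under the alternatives, but for 7 where the 10 most-counted genes, Saa3 among them, were removed, and 7 at a mean CPM of at least 1 or in edgeR fits on the groups compared, where Saa2 failed the filter. Upper-quartile scaling moved the median of all genes by -0.18 in both LPS comparisons. For KO against WT after LPS, 1 gene was called, 0 with DESeq2 on 12 libraries and 3 (Ptx3, Fpr1 and Fpr2) with no fold minimum. For KO against WT without LPS, 0 were called, and 1 (Ptx3) with no filter on low counts, where leaving out 1 library gave 0 to 1. For the interaction, 1 was called, 0 with DESeq2 or the replicate block, 2 with no fold minimum, and 0 to 1 with 1 library left out. With the small RNA share as a covariate Ptx3 was lost (-2.52, edgeR adjusted p = 0.133), Saa3 was gained (1.48, edgeR adjusted p = 1.69e-07), and Fpr2 had 0.88 (edgeR adjusted p = 0.0615). The cause of these shifts was not tested. The small RNA share did not overlap between genotypes in either treatment, so this fit cannot fully separate it from genotype. The block changed no other call.

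Signs turned only for differences that had not passed. For KO against WT after LPS, Hp was at 0.003 with DESeq2 and RLE scaling, 0.024 with no filter and 0.10 with the covariate, Saa3 at -0.013 with upper-quartile scaling and -0.003 at a mean CPM of at least 1, and Saa1 and Saa2 at 0.742 and 0.023 with the covariate. With 1 library left out, Hp ranged from -0.059 to 0.043, Saa3 from -0.11 to 0.171, Saa1 from -0.38 to 0.11 and Saa2 from -0.72 to 0.18. Without LPS, the covariate gave -0.11 for Lcn2 and 0.016 for Fpr1, and leaving out 1 library gave -0.17 to 0.59 and -0.18 to 0.22. The Lcn2 interaction was 0.048 with DESeq2, 0.049 with RLE scaling, 0.001 with no filter, 0.47 with the covariate and -0.39 to 0.36 with 1 library left out.

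All genes called after LPS between genotypes numbered 194, and 117 at a mean CPM of at least 1, 109 with the covariate and 2223 with no fold minimum. Without LPS these were 283, 160, 132 and 3700. For the interaction they were 335, with 111 under the covariate, 2611 with no fold minimum, 519 without WT LPS library 1 and 197 without WT LPS library 3. In the LPS comparisons, 5870 (WT) and 5741 (KO) became 11386 and 11295 with no fold minimum. Counts of 0 to 20 limit Saa2 and the UT values of Saa1 and Ptx3.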
